A study of Homo sapiens with 6 samples.

Results

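The core circadian clock genes are the 10 genes PER1, PER2, PER3, CRY1, CRY2, BMAL1, CLOCK, NR1D1, NR1D2 and DBP. They were found in the deposited tables by the Ensembl identifiers that carry these symbols, where BMAL1 is named ARNTL in older annotations, and they make up 10 of the 61496 features listed. The RNA came from U251, an established human glioma cell line grown in DMEM with serum. The groups were 3 libraries of untreated control cells and 3 libraries of cells exposed for 2 h to sevoflurane (Sev), a volatile anesthetic. The study worked with several concentrations and names 5.1% in its legend for the comparison of RNAs, while no label states the concentration of a library. All libraries came from the same cell line with no other agent or genetic change named. The labels do not say whether a library was a separate culture, so the p-values measure only the spread between these libraries. No time of harvest or of a medium change is given for either group. A difference in clock phase or handling between the groups therefore cannot be told apart from a difference due to Sev.

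The circadian clock is a transcriptional feedback loop that most cells carry, glial cells included. The heterodimer of CLOCK and BMAL1 binds E-box elements and switches on PER and CRY genes, whose proteins return to the nucleus and repress that heterodimer. In a linked loop the nuclear receptors NR1D1 and NR1D2, also called REV-ERBα and REV-ERBβ, repress BMAL1 through ROR response elements, on which RORA and RORB act as activators. DBP is an output factor that binds D-box elements. PER1 and PER2 also answer acute signals, among them cAMP and glucocorticoids, so that a short stimulus can shift the phase of the clock.

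In Sev-treated cells PER1, PER2, CRY1, BMAL1, NR1D1 and NR1D2 were higher than in control cells, CLOCK and DBP were called lower by a smaller amount, and PER3 and CRY2 did not pass the test. Both lower calls were lost with the replicate block, without the expression filter and when control replicate 1 or 3 or Sev replicate 1 was dropped, and leaving out any other library ended 1 of them. The rise was largest for NR1D2, which was 3.83-fold higher, and PER2, which was 3.35-fold higher. All 10 genes passed the expression filter and were tested with edgeR's quasi-likelihood test among 27514 features. A gene was called when its Benjamini-Hochberg adjusted p over all of these features was under 0.05. Of the 10 genes, 6 were called higher and 2 lower, where 22.1% of all tested features were called higher, 21.5% lower and 43.7% in either direction. This even split depends on the scaling, as 6094 features were called higher and 5920 lower after TMM but 4665 higher and 7502 lower with library size only. Among the protein-coding genes of GENCODE 29 that were tested, 25% were called higher and 21% lower. The control and Sev libraries did not overlap for 6 members that were higher and 1 that was lower, DBP, against 28.3% and 28.2% of all tested features. The median log2 fold change was 0.87 over the 10 genes and -0.0056 over all tested features. Past the study's own threshold, a log2 fold change over 1 in size with an unadjusted p under 0.05, were CRY1, NR1D1, NR1D2 and PER2, all higher, so 4 of 10 where the share of all features was 11.4% (9.07% of protein-coding genes). None of the 10 passed it in the lower direction, where the share was 12% (7.62% of protein-coding genes), and in either direction it was 23.5%. The set past the threshold moved with the fit, since CRY1 fell short of it with 0.81 on log2(FPKM + 1) and 0.98 on log2(FPKM + 0.1), and PER1 passed it with 1.04 without Sev replicate 3. These counts describe the members beside a broad difference between the groups.

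The library totals were between 38624292 and 46318311 counts. Levels are given as CPM, counts scaled to the TMM-normalised library size, and as the deposited FPKM where genes are compared with each other, since FPKM divides by gene length. The glial and glioma markers VIM, NES, GFAP, S100B, CD44 and EGFR were all expressed, with summed FPKM of 1120 to 1320 in control and 1170 to 1290 in Sev libraries, a sum led by VIM. Among them S100B was 2.14-fold lower (edgeR adjusted p = 0.00215), while CD44 and EGFR were higher by 0.97 and 0.27 on the log2 scale (edgeR adjusted p = 0.000174 and 0.0451). Markers of immune, endothelial, neuronal, oligodendrocyte and epithelial cells, 16 genes in all, summed to 2.58 to 3.28 FPKM in control and 4.13 to 4.96 FPKM in Sev libraries. CD3E and AIF1 were at 0 counts in every library, and CD14 was the marker that moved most, from a mean of 0.675 to 2.31 FPKM. MBP, a myelin gene, and PECAM1, an endothelial gene, were also called higher, from 0.112 to 0.207 FPKM (edgeR adjusted p = 0.00588) and from 0.0747 to 0.127 FPKM (edgeR adjusted p = 0.0409). The part of these markers in the results on the clock genes was not tested. In bulk RNA, fewer cells with a transcript and less of it per cell cannot be told apart.

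Promoter sequences of the clock genes are shown because their known regulation runs through short elements, the E-box CACGTG and its variant CACGTT, the D-box (TTATGTAA, TTATGCAA or TTACGTAA), the core TGACG of the cAMP response element, and the ROR response element (TAGGTCA or TGGGTCA). They come from RefSeq on GRCh38.p14, which gave 15 windows of 250 bases before to 50 bases after a transcription start for the 10 genes. The lines below run from 250 bases before the start to at most 10 bases after it, with little annotated untranslated sequence, 5′ to 3′ on the strand of the gene, with matches to these letters on either strand in capitals. The 3 PER genes, both NR1D genes and CIART, a repressor of the same loop, were chosen since they range from no call to the largest rise. For NR1D2 the downstream of 2 annotated starts is given.
PER1 (chr17:8152426-8152654, minus strand): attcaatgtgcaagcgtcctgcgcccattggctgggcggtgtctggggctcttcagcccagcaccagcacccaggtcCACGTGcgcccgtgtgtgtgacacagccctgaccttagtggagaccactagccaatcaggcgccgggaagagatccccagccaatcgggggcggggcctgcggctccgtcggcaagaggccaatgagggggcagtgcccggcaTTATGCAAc
PER2 (chr2:238288601-238288860, minus strand): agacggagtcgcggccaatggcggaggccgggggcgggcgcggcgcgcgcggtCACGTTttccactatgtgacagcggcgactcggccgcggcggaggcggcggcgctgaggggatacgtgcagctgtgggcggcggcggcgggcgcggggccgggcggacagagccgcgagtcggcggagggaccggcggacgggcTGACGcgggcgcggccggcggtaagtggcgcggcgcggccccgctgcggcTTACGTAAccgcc
PER3 (chr1:7784041-7784300, plus strand): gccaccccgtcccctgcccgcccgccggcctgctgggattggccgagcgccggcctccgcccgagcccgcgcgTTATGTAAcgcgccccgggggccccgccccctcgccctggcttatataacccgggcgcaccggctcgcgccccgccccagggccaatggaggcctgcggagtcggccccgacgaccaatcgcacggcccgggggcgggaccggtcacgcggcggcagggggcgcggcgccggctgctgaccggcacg
NR1D1 (chr17:40100716-40100839, minus strand): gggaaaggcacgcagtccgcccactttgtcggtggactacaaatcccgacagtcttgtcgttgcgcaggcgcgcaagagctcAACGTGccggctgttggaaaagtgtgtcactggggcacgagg
NR1D2 (chr3:23945871-23946130, plus strand): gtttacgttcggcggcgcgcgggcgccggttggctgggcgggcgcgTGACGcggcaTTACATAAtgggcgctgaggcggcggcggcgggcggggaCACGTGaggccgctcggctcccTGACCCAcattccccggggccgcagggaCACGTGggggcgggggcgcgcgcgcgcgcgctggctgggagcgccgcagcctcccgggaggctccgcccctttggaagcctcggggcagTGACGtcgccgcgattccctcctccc
CIART (chr1:150282304-150282552, plus strand): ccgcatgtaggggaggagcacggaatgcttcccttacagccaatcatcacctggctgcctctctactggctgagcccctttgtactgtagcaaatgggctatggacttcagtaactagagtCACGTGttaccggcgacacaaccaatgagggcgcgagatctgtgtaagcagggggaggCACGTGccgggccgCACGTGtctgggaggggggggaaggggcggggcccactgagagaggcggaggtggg

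Counted from the start as +1, the PER1 window held the E-box at -173 and a D-box at -30. The PER2 window held CACGTT at -197, TGACG at -53 and the D-box TTACGTAA from -3 across the start. The PER3 window shown held a D-box at -177 and none of the other letters. For both the PER2 start and this PER3 start, the first 50 bases are in no GENCODE 29 transcript. The NR1D1 window held CACGTT on the opposite strand at -168. The downstream start of NR1D2 had a D-box at -194 and a ROR element at -133, both on the opposite strand, TGACG at -204 and -16, and E-boxes at -155 and -105, and CIART had 3 E-boxes, at -129, -71 and -57. Genes that were not higher had matches too. The windows of CRY2, which was not called, held the E-box variant at -188 and a ROR element at -65. Those of CLOCK, called lower, held them at -187 and -217. Both genes also held the core of the cAMP response element, as did the upstream start of NR1D2, which had no other match. The 15 windows of the 11 further clock factors described below held no D-box or E-box variant, and 6 held the E-box. These matches describe letters in short windows and were not tested for binding or for a link with the changes. Of all 35116 RefSeq windows of this length, 7.26% held CACGTG, 5.34% held CACGTT, 24.6% held TGACG, 1.84% held a D-box and 5.69% held a ROR element. In the 15 windows of the 10 genes, the numbers with such a match were 2, 5, 7, 4 and 4 in the same order, and windows of the same gene can overlap. For CRY1 and BMAL1 only a short site is shown. CRY1 has CACGTT on its opposite strand, and its window also held TGACG at -18. The downstream of 2 RefSeq starts of BMAL1, whose first 50 bases are in no GENCODE 29 transcript, has TAGGTCA at 31, and the other window had no match. TAGGTCA is the kind of element that ROR and REV-ERB proteins share.
CRY1 (chr12:107093623-107093648, minus strand): acacttcagaAACGTGaggtgccggt
BMAL1 (chr11:13277810-13277836, plus strand): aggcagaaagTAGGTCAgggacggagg

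The PER genes encode the period proteins, the repressors that build up in the cytoplasm and enter the nucleus with CRY. PER2 (ENSG00000132326, chromosome 2, 238244038 to 238290102, GRCh38) was at 29.4, 30.9 and 29.9 CPM in the control libraries and at 96.8, 105 and 101 CPM in the Sev libraries. The groups were far apart, and the spread within each group was small beside that distance. The log2 change of 1.74 ± 0.0779 (SE, edgeR adjusted p = 2.23e-05) placed it at rank 25 by p-value among the 27514 features. PER1 (ENSG00000179094, chromosome 17, 8140472 to 8156506) was at 85.1, 80.9 and 78.6 CPM in control and at 148, 187 and 137 CPM in Sev libraries. No Sev library was within the control range, and Sev replicate 2 was the highest. PER1 had a log2 change of 0.94 ± 0.122 (SE, edgeR adjusted p = 0.000846), a 1.92-fold rise that stayed just under the study's threshold for size. PER3 (ENSG00000049246, chromosome 1, 7784320 to 7845177) was at 68, 64.7 and 58.7 CPM in control and at 71.8, 67.9 and 72.9 CPM in Sev libraries, so that the groups overlapped narrowly, with Sev replicate 2 just under control replicate 1. The log2 change was 0.15 with a 95% interval from -0.0469 to 0.351 (edgeR adjusted p = 0.188), which leaves out a rise of the size seen for PER1 or PER2. It was 0.089 without control replicate 3 and 0.011 with library size only.

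**Figure D1:**
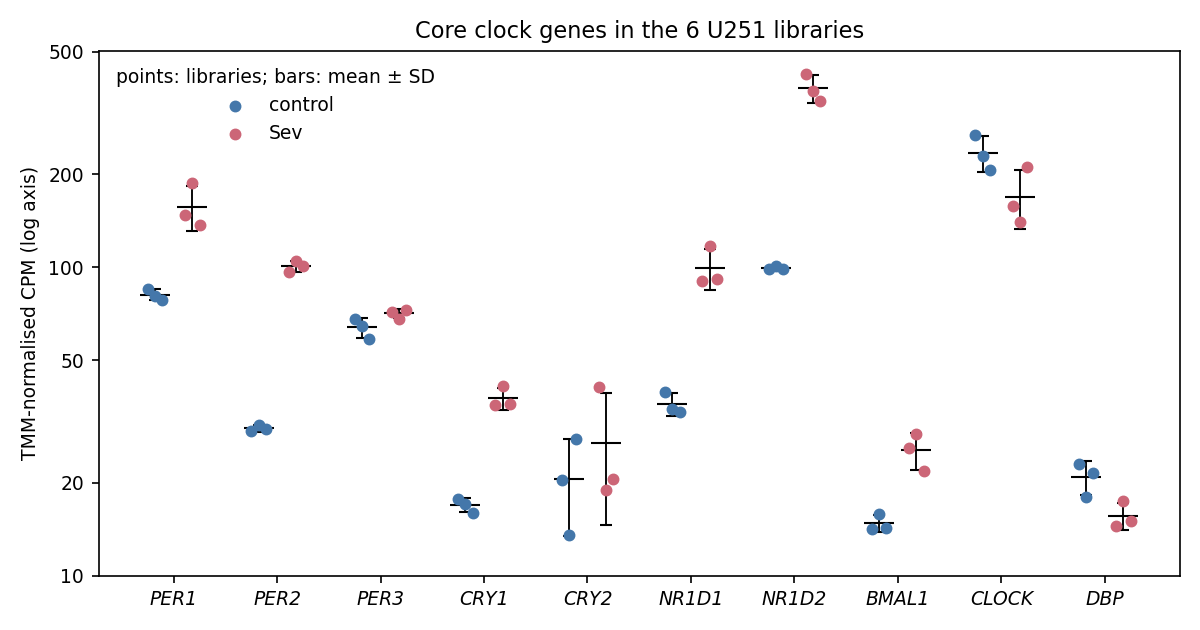
TMM-normalised CPM on a log axis for the 10 core clock genes, with each point a library, control and Sev side by side, and bars giving the mean ± SD of 3 libraries. NR1D2 and PER2 stand clear of their controls, at 381 against 99.6 and 101 against 30.1 CPM, while the groups of PER3, CRY2 and CLOCK overlap.

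Since a ratio of 2 genes within a library does not depend on how libraries are scaled, PER genes were also compared with each other inside each library. PER1 counts were 2.71 ± 0.155 (SD, n = 3) times those of PER2 in control libraries and 1.55 ± 0.22 (SD, n = 3) times in Sev libraries. The ratio of PER2 to PER3 went from 0.473 ± 0.0383 to 1.42 ± 0.102, so that PER2 counts passed PER3 counts in every Sev library and in no control library. Ratios of 5 pairs of genes were compared, and in 4 of the 5 the groups did not overlap. With 3 libraries in each group the smallest p of the exact two-sided permutation test is 0.1, the value found for each of these 4 pairs (0.125 after adjustment over the 5).

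CRY1 and CRY2 encode the cryptochromes, the stronger repressors of the CLOCK and BMAL1 heterodimer. CRY1 (ENSG00000008405, chromosome 12, 106991364 to 107093829) was at 17.7, 17.1 and 16 CPM in control and at 35.7, 41.1 and 35.9 CPM in Sev libraries. Every Sev library was above every control library by more than the spread of either group. CRY1 had a log2 change of 1.15 ± 0.101 (SE, edgeR adjusted p = 0.000198). CRY2 (ENSG00000121671, chromosome 11, 45847118 to 45883248) was at 20.5, 13.5 and 27.7 CPM in control and at 41, 19 and 20.6 CPM in Sev libraries. Relative to its mean, CRY2 varied between replicates more than any other member, in both groups, and Sev replicate 1 alone was above the control range. CRY2 changed by 0.38 on the log2 scale, with a 95% interval from -0.412 to 1.18 (edgeR adjusted p = 0.398), an interval that holds both no difference and a rise like that of CRY1. Without Sev replicate 1 the value turned to -0.055 (edgeR adjusted p = 0.897). The ratio of CRY1 to CRY2 counts was 0.902 ± 0.343 in control and 1.59 ± 0.659 in Sev libraries, with overlapping groups (exact permutation p = 0.2, n = 3 in each group), so a difference in response between the cryptochromes could not be shown.

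NR1D1 and NR1D2 encode heme-binding nuclear receptors without an activation function, which repress BMAL1 and other genes through the corepressor NCOR1 and the deacetylase HDAC3. NR1D2 (ENSG00000174738, chromosome 3, 23945260 to 23980618) was at 98.6, 101 and 98.7 CPM in control and at 424, 374 and 345 CPM in Sev libraries. The controls were within a few CPM of each other and all Sev libraries were more than 3-fold above them. The log2 change of 1.94 ± 0.0933 (SE, edgeR adjusted p = 2.91e-05) ranked 34 by p-value among all tested features. NR1D1 (ENSG00000126368, chromosome 17, 40092787 to 40100725) was at 39.5, 34.7 and 33.9 CPM in control and at 90.5, 117 and 91.5 CPM in Sev libraries. The groups were well apart, with Sev replicate 2 the highest. NR1D1 had a log2 change of 1.47 ± 0.125 (SE, edgeR adjusted p = 0.000175). The ratio of NR1D1 to NR1D2 counts fell from 0.362 ± 0.0335 in control to 0.263 ± 0.0494 in Sev libraries, which did not overlap. NCOR1 and HDAC3 themselves were not called, with log2 fold changes of 0.11 and -0.058 (edgeR adjusted p = 0.256 and 0.627).

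BMAL1 and CLOCK encode the activating pair of the loop. BMAL1 (ENSG00000133794, chromosome 11, 13276652 to 13387266) was at 14.2, 15.9 and 14.3 CPM in control and at 25.9, 28.9 and 21.8 CPM in Sev libraries. The groups did not overlap, and the Sev libraries spread more than the controls. On the log2 scale BMAL1 changed by 0.79 ± 0.129 (SE, edgeR adjusted p = 0.00235), a 1.73-fold rise, and by 0.45 on log2(FPKM + 1). CLOCK (ENSG00000134852, chromosome 4, 55427903 to 55547138) was at 268, 230 and 207 CPM in control and at 158, 140 and 211 CPM in Sev libraries. Sev replicate 3 was inside the control range, so the groups overlapped. CLOCK had a log2 change of -0.47 ± 0.163 (SE, edgeR adjusted p = 0.0485), just inside the limit. Leaving out 1 library ended the CLOCK call for control replicate 1, 2 or 3 and for Sev replicate 1 or 2 (adjusted p from 0.0536 to 0.142), and it was kept without Sev replicate 3 (edgeR adjusted p = 0.00906). It was also lost with DESeq2's size factors (edgeR adjusted p = 0.0553), without the expression filter (0.0684) and with the replicate number as a block (0.0709), and with limma on log2(FPKM + 1) without a filter (0.0688). The ratio of CLOCK to BMAL1 counts was 18.9, 14.5 and 14.5 in control and 6.13, 4.85 and 9.69 in Sev libraries, with no overlap.

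**Figure D2:**
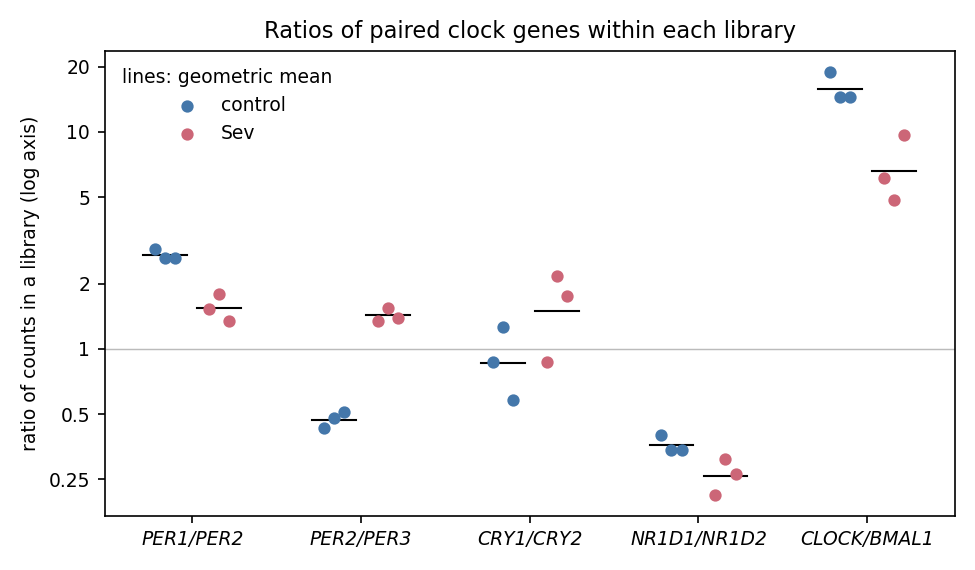
Ratio of the counts of 2 clock genes within each library, on a log axis, with each point a library and lines at the geometric mean of a group. The ratio of PER2 to PER3 crosses 1 between control and Sev libraries, and that of CLOCK to BMAL1 falls from an arithmetic mean of 15.9 to 6.89.

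DBP is a PAR bZIP factor and in most tissues a strongly rhythmic output of the E-box arm. DBP (ENSG00000105516, chromosome 19, 48630030 to 48637438) was at 23.1, 18 and 21.6 CPM in control and at 14.5, 17.4 and 15 CPM in Sev libraries. The groups did not overlap, although Sev replicate 2 was close to control replicate 2. On the log2 scale DBP changed by -0.42 ± 0.134 (SE, edgeR adjusted p = 0.0362). The DBP call ended without control replicate 1 or 3 and without Sev replicate 1 or 3 (adjusted p from 0.0874 to 0.112), without the expression filter (0.0506) and with the replicate block (0.0885). The count of 2 lower members was 0 or 1 in each of the 6 fits with a library removed, and it was 0 when control replicate 1 or 3 or Sev replicate 1 was left out. The 6 higher calls were made in all 6 of these fits. The other PAR bZIP factors, TEF and HLF, were higher in Sev and are given below.

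Compared per length, the order of the members changed between the groups. In control cells CLOCK had the highest mean level, 17.4 ± 2.59 FPKM (SD, n = 3), followed by NR1D2 with 14.6 ± 0.187, whose highest library, 14.8, was just under the lowest of CLOCK, 15.2. Next came NR1D1 with 11.7 ± 1.21 and PER1 with 9.92 ± 0.581 FPKM. PER3 stood at 6.7 ± 0.583 and PER2 at 3.73 ± 0.0388 FPKM. CRY1, CRY2 and DBP were at 3.01, 2.82 and 2.74 FPKM and were not apart beyond their spread, and BMAL1 was lowest with 1.85 ± 0.0853 FPKM, within the range of the CRY2 libraries. In Sev-treated cells NR1D2 led with 50.6 ± 5.04 FPKM, followed by NR1D1 with 29.1 ± 3.47 and PER1 with 17.2 ± 2.31 FPKM. CLOCK and PER2 came next with 11.4 ± 2.87 and 11.3 ± 0.431 FPKM, and their libraries overlapped, as did those of PER3 and CRY1 at 6.75 and 6.04 FPKM. CRY2 and BMAL1 followed with 3.33 and 2.9 FPKM and overlapping libraries, and DBP was the lowest with 1.85 ± 0.135 FPKM. These orders are a description and were not tested.

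**Figure D3:**
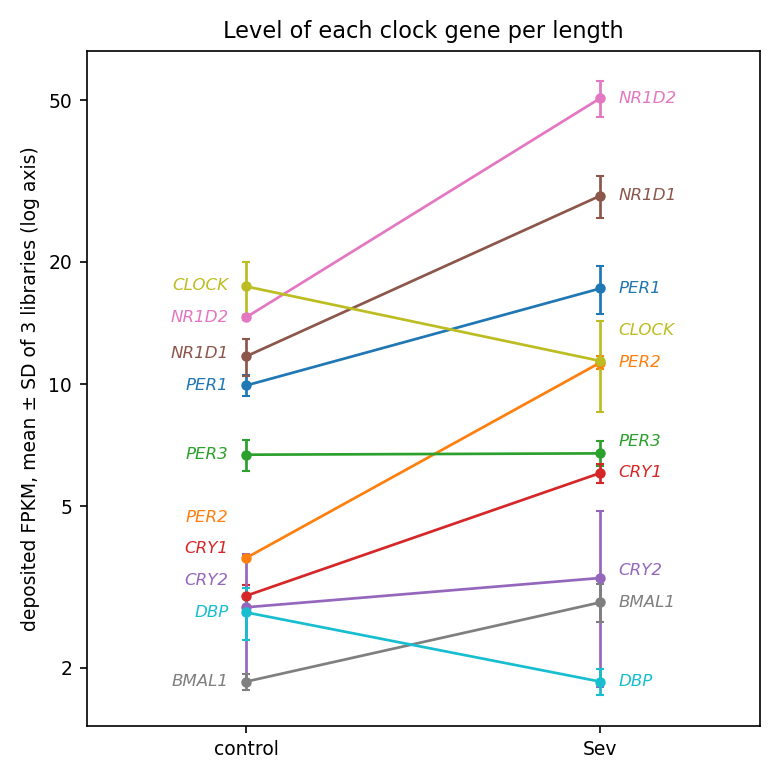
Deposited FPKM of each core clock gene, mean ± SD of 3 libraries on a log axis, with a line joining control to Sev. NR1D2 goes from 14.6 to 50.6 FPKM and CLOCK from 17.4 to 11.4 FPKM, so that CLOCK moves from the first to the fourth place.

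The rest of the clock machinery was described through a list of 11 further clock factors, chosen with earlier results of these data known. All 11 were tested, 7 were called higher, 2 were called lower and 2 were not called, with a median log2 change of 0.58, where 22.1% of all tested features were called higher and 21.5% lower. CIART, which represses the CLOCK and BMAL1 heterodimer, was at 13.1, 14.6 and 12.1 CPM in control and at 39.7, 37 and 46.1 CPM in Sev libraries. The log2 change of 1.63 ± 0.124 (SE, edgeR adjusted p = 0.000128) was the largest in the list, and the groups were well apart. BHLHE41 and BHLHE40, the DEC repressors that compete for E-boxes, rose by 0.89 (edgeR adjusted p = 0.000345) and 0.57 (edgeR adjusted p = 0.00482) on the log2 scale. NFIL3, a repressor at D-boxes, rose by 0.62 (edgeR adjusted p = 0.0125), and by 0.38 on log2(FPKM + 1).

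RORA and RORB, activators at the ROR element, went the other way. RORA was at 20.8, 20.4 and 18.3 CPM in control and at 7.73, 6.15 and 8.68 CPM in Sev libraries, a log2 change of -1.40 ± 0.152 (SE, edgeR adjusted p = 0.000435). RORB was at 9.6, 10.4 and 11 CPM in control and at 3.82, 4.52 and 5.65 CPM in Sev libraries, a log2 change of -1.14 ± 0.173 (SE, edgeR adjusted p = 0.00167). For both genes every Sev library was under every control library. On log2(FPKM + 1) the values were -0.57 for RORA and -0.48 for RORB. At the level of RNA, NR1D1 and NR1D2, which repress at this element, thus rose while RORA and RORB fell. BMAL1, the gene named above as repressed through it, was called higher, by 0.79 (edgeR adjusted p = 0.00235). Action at the element was not tested.

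TEF and HLF, the relatives of DBP that activate at D-boxes, rose by 0.81 ± 0.0946 (SE, edgeR adjusted p = 0.000575) and 1.10 ± 0.153 (SE, edgeR adjusted p = 0.00117) on the log2 scale. HLF was weakly expressed, at 2.86 ± 0.178 CPM in control and 6.14 ± 0.558 CPM in Sev libraries, and its value was 0.32 on log2(FPKM + 1) and 0.80 on log2(FPKM + 0.1). NPAS2, a paralog of CLOCK that also pairs with BMAL1, rose by 0.58 (edgeR adjusted p = 0.0258) from 5.4 ± 0.604 to 8.08 ± 1.24 CPM, a call lost without control replicate 1 or 2 and without Sev replicate 1 or 3 (adjusted p from 0.0636 to 0.0931) and with library size only (0.0894). With limma on log2(FPKM + 1) without a filter it was 0.13 (adjusted p = 0.296). BMAL2, a paralog of BMAL1, ran from 10.7 to 27.9 CPM in control and from 14.2 to 36 CPM in Sev libraries and was not called (edgeR adjusted p = 0.54), with log2 changes from 0.011 to 0.68 over the libraries left out. TIMELESS, better known in replication in mammals, had a log2 change of -0.18 (edgeR adjusted p = 0.224), which was -0.091 without Sev replicate 1, -0.29 without Sev replicate 3 and -0.32 with library size only.

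**Figure D4:**
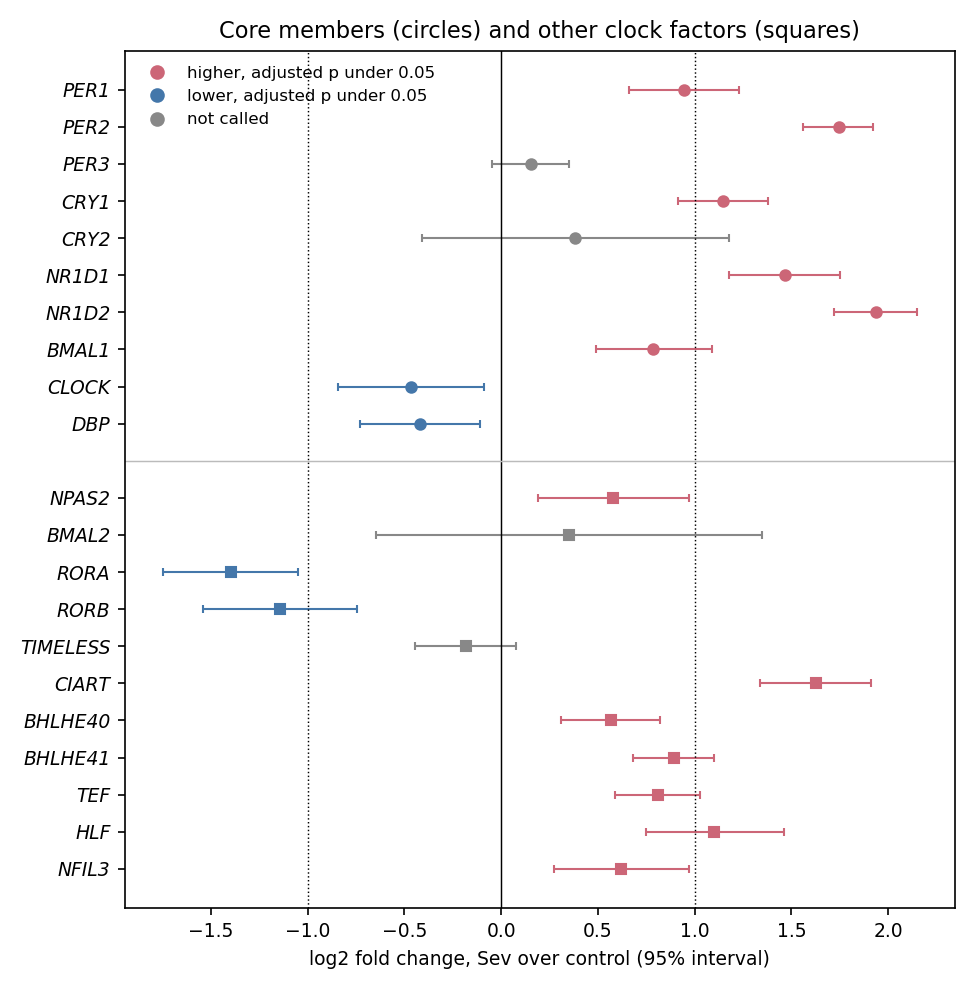
Log2 fold change of Sev over control with its 95% interval from the edgeR fit, for the 10 core members (circles) and 11 further clock factors (squares), with dotted lines at 1 and -1. NR1D2, PER2, CIART and NR1D1 lie beyond 1 with their whole interval, RORA lies beyond -1, and the intervals of CLOCK and DBP end near 0.

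Further lists were counted in the same fit. Of 20 post-translational regulators and cofactors, 19 were tested, 4 were called higher and 3 lower, with a median log2 change of 0.11. These counts are near the 22.1% and 21.5% of all tested features and are no result about the regulators. The exception, FBXL21P, had 3 counts in control replicate 1 and 0 elsewhere. Only USP2, a deubiquitinase with rhythmic expression, was past a log2 change of 1 in size in this list, at -1.06 ± 0.219 (SE, edgeR adjusted p = 0.00621), from 4.81 ± 0.884 to 2.3 ± 0.449 CPM. It was inside 1 without control replicate 3 (-0.96), without Sev replicate 1 (-0.94) and on log2(FPKM + 1) (-0.45). Of the genes named next, the choice was made after their values were seen. The PER kinases CSNK1E and CSNK1A1 were higher by 0.47 and 0.41 (edgeR adjusted p = 0.00609 and 0.00801), and CSNK1D was at 0.061 (edgeR adjusted p = 0.582). BTRC, which marks phosphorylated PER for degradation, was lower with -0.43 (edgeR adjusted p = 0.00371). FBXW11, its paralog in the same list, was not called, at 0.076 (edgeR adjusted p = 0.416). In control libraries FBXW11 was at 110 CPM and BTRC at 45.9 CPM.

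Of 10 genes whose products act on the PER promoters, 7 were called higher and 2 lower, beside 22.1% and 21.5% of all tested features, with a median log2 change of 0.46, and the 2 became 1 when any library other than control replicate 1 was left out. None of them was past 1 in size. As examples chosen after the values were seen, the coactivators CRTC3 and EP300 were higher by 0.77 and 0.61 (edgeR adjusted p = 0.000421 and 0.00077). Of the same family as CRTC3, CRTC2 was also higher, by 0.67 (edgeR adjusted p = 0.0052). CRTC1 was lower by contrast, with a log2 change of -0.49 (edgeR adjusted p = 0.0354). CREB1, a factor that binds the cAMP response element, was lower, from 31.6 ± 3.96 to 16.8 ± 0.518 CPM, with a log2 change of -0.91 (edgeR adjusted p = 0.000779). ATF1, another such factor in the list, was called higher, with a log2 change of 0.36 (edgeR adjusted p = 0.039). Of 11 output genes, 5 were called higher and 1 lower, with a median of 0.27, and the 5 became 3 when control replicate 1 or 3 was left out or with library size only. In either direction 6 of 11 were called, not far from the 43.7% of all tested features. NOCT, a rhythmic phosphatase of NADP(H), rose from 22.4 ± 2.13 to 77.8 ± 17 CPM, a log2 change of 1.79 (edgeR adjusted p = 0.000217). KLF10 rose from 43 ± 1.42 to 125 ± 42.4 CPM, with 91.7 to 173 CPM in the Sev libraries, a log2 change of 1.54 (edgeR adjusted p = 0.00114). TSC22D3, also called GILZ and a known glucocorticoid target, was 2.01-fold lower, going from 17 ± 3.25 to 8.5 ± 1.19 CPM (edgeR adjusted p = 0.00308).

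Several members share their span with other genes, while the sources do not say if reads were counted by strand. The overlaps were read from GENCODE 29 on GRCh38. CLOCK overlaps TMEM165 on the opposite strand over 25495 bases, and TMEM165 also fell, from 155 ± 7.93 to 118 ± 15.3 CPM (log2 fold change -0.40, adjusted p = 0.0175, edgeR's quasi-likelihood test). RN7SKP30, a 7SK pseudogene inside CLOCK on its strand, fell by 1.43 on the log2 scale with 18 to 85 counts in a library. How far these counts and those of CLOCK share reads was not tested. NR1D1 overlaps THRA, the thyroid hormone receptor gene, over 1081 bases at the ends of both genes, and THRA was at 55.6 ± 8.35 and 64.5 ± 8.87 CPM (log2 fold change 0.21, adjusted p = 0.25). NR1D2 overlaps NKIRAS1 over 1332 bases and DBP overlaps SPHK2 over 688 bases, each on the opposite strand, and neither neighbour was called (edgeR adjusted p = 0.24 and 0.526). The features that overlap PER1, PER2, PER3, CRY1 and BMAL1 had at most 91 counts in a library, against at least 601 for these members. Among them ENSG00000263620, on the strand of PER1, was 3.43-fold higher (edgeR adjusted p = 0.0187), and RN7SKP151, on the strand of BMAL1, was 4.18-fold higher (edgeR adjusted p = 0.0162). They were MIR6883 and ENSG00000263620 at PER1, ENSG00000225057 and ENSG00000283635 at PER2, ENSG00000236266 and UTS2 at PER3, ENSG00000257548 at CRY1 and RN7SKP151 at BMAL1. At CLOCK, the Y RNA copy ENSG00000238585 and ENSG00000272969 had at most 34 counts.

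The protein-coding genes whose profile over the 6 libraries was most like that of NR1D2, by root-mean-square difference of log2 CPM centred on the control mean, were TRIB1, ALPK3, ABCC2, CD14 and SLFNL1, with differences from 0.098 to 0.132 among 15188 genes compared. For CLOCK, which had the lowest log2 change (-0.47) in this fit but was not apart from DBP (-0.42), they were PIK3R3, GRTP1, MAB21L2, TRMT12 and SLC26A4, with differences from 0.0653 to 0.0831. With 6 libraries in 2 groups this likeness is led by the size of the difference between the groups.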

How the data were processed

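RNA sequencing of U251 cells covered 3 control and 3 Sev libraries, grouped by their titles. By the methods of the study, libraries with strand-specific adapters were made from RNA freed of rRNA. The authors deposited raw counts per gene and FPKM values, 1 column per library. The submitters' processing notes list bcl2fastq 2.19, featureCounts and hg18 with no role. The aligner, the strand setting and the annotation are not given in the sources used here. The table also holds 932 MSTRG identifiers, the form that StringTie gives to assembled loci. Symbols were joined through a table of Ensembl identifiers (60295 matched). Positions came from GENCODE 29 on GRCh38, which lists 58457 of the identifiers. No deposited coordinates were used.

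The counts, 38624292 to 46318311 per library, went through filterByExpr, TMM, glmQLFit and glmQLFTest of edgeR 4.0.16 in R 4.3.3, in a model of the group alone, with Benjamini-Hochberg adjustment. The SE was derived from the F statistic, as the size of the log2 change over its root. Exact permutation tests used scipy 1.17.1. The alternatives were DESeq2 1.42.0 size factors or its Wald test, library size only, other filters, the replicate block, each library left out, and limma 3.58.1 on log2(FPKM + 1) or log2(FPKM + 0.1). The models were run on simulated counts with 200 changed genes, far fewer than were called here. That run does not show how they behave under so broad a difference. Replicates differed beyond sampling noise in 49% to 66.6% of 15608 genes, so no library looked like a copy. The members and lists were chosen with earlier results of these data known, and some list genes are not reported here. Named were all members, the 11 further factors, overlapping genes, called genes of the other lists past a log2 fold change of 1, and the 5 genes most like the member with the highest or lowest log2 change. Other list genes were named after their values were seen (NCOR1, HDAC3, CSNK1E, CSNK1A1, CSNK1D, BTRC, FBXW11, CRTC1, CRTC2, CRTC3, EP300, CREB1, ATF1), as were the markers. Intervals cover the spread between libraries.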

Additional observations from a re-analysis of the deposited data

How the results depend on the processing

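The 6 higher members were called under every alternative run, and of 373 values, each for 1 of 25 genes under 1 alternative, 351 kept their direction and stayed on the same side of an adjusted p of 0.05, though not always of a log2 change of 1. Of the others, 21 lost their call and 1 changed sign without being called, CRY2 (-0.055 without Sev replicate 1, in a range from -0.055 to 0.65 over the libraries left out). With library size only, the median log2 fold change of the tested features was -0.147, and it was -0.111 and -0.156 with log2(FPKM + 1) and log2(FPKM + 0.1), so small differences move with the scaling. The number of members called lower, 2, was 1 with DESeq2's size factors and with log2(FPKM + 1) without a filter, and 0 without the expression filter and with the replicate block. Regulators called higher went from 4 to 2 with log2(FPKM + 1) without a filter. Output genes called higher went from 5 to 3 with library size only, log2(FPKM + 1) with and without a filter and log2(FPKM + 0.1). PER promoter inputs called lower went from 2 to 1 without the expression filter. On the 2 filtered FPKM scales 3676 and 3623 features were called higher, against 6094, and 6709 and 6530 lower, against 5920. With library size only they were 4665 and 7502. Features past the study's threshold, 3147 higher and 3315 lower, were 1691 and 2148 with at least 10 counts in every library, 579 and 690 with log2(FPKM + 1), 579 and 691 without its filter, and 1476 higher with log2(FPKM + 0.1). Members past that threshold, 4, were 3 on the FPKM scales. The cause of these moves was not tested.

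Leaving out each library gave 0 to 1 members called lower, 3 to 4 regulators called higher, 1 to 2 PER promoter inputs called lower and 3 to 4 output genes called higher. Log2 ratio changes ran from -0.917 to -0.715 for PER1/PER2, 1.53 to 1.64 for PER2/PER3, 0.507 to 1.18 for CRY1/CRY2, -0.603 to -0.329 for NR1D1/NR1D2 and -1.54 to -1.04 for CLOCK/BMAL1. The groups share replicate numbers that no label ties to a shared culture, and deviations of same-numbered libraries correlated at -0.00723, 0.00351 and 0.027, so the replicate block is given only as an alternative. With it, 5228 features were called higher and 5021 lower, and CLOCK and DBP lost their calls.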
